A study of Mus musculus with 9 samples.

Results

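A set of 10 genes that the transcription factor p53 is known to switch on, and whose products slow the cell cycle or restrain growth, were followed in cultured mouse lung cells under high oxygen with and without added WNT5A. The 10 genes were Cdkn1a, Btg2, Gadd45a, Plk2, Plk3, Sesn1, Sesn2, Ddit4l, Phlda3 and Zmat3, taken by name from the 56620 genes of the table. These genes and all further lists below were chosen with earlier results of these data known, so their counts are no independent evidence. All 10 had a mean of at least 1 FPKM and so were among the 13832 genes tested. FPKM counts the sequenced fragments of a transcript relative to its length and to all mapped fragments of the library, and the values of a gene's Ensembl transcripts were summed.

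RNA was sequenced from mouse cells labelled as pulmonary microvascular endothelial cells (PMVECs), the cells that line the smallest vessels of the lung. The RA group was kept in 21% oxygen (room air), the HO group in 85% oxygen (hyperoxia), and the HO-rWNT5A group in 85% oxygen with 100 ng/ml of recombinant WNT5A, a secreted WNT protein, all for 48 h. Each group had 3 libraries of cells bought from a commercial supplier, and the labels used here give no strain, sex or age of the mice. Separate cultures are not stated for the libraries of a group, and the p-values thus cover spread among libraries that could be technical.

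The protein p53 is stabilised when DNA is damaged or the cell is under other stress, and it then binds DNA sites near its target genes and raises their transcription. One branch of its targets stops division: p21, encoded by Cdkn1a, inhibits the cyclin-dependent kinases, which keeps the retinoblastoma family proteins and the DREAM repressor complex on the genes of DNA replication and mitosis. Another branch lowers growth signals, through the sestrins and Ddit4l acting on the mTORC1 kinase and through Phlda3 acting on the AKT kinase. High oxygen raises reactive oxygen species in lung cells and is known to damage their DNA and slow their growth.

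Most defining endothelial markers were near 0 in these libraries. Of 12 endothelial markers, 9 averaged under 1 FPKM, among them Pecam1 with 0.0932 ± 0.0351 (SD over all libraries, n = 9) and Cdh5 with 0.0544 ± 0.0176. The 2 that reached 5 FPKM were Flt1 with 38.0 ± 4.6 and Emcn with 10.1 ± 1.13. Of 8 smooth muscle and pericyte markers, 6 reached 5 FPKM, as did 3 of 6 fibroblast, 3 of 6 epithelial and 0 of 6 leukocyte markers. The highest smooth muscle and pericyte markers were Acta2 with 1577.8 ± 143.9 FPKM, Tagln with 887.6 ± 89.0 and Des with 366.7 ± 54.6. Myh11 (0.237 ± 0.0399) and Rgs5 (0.759 ± 0.156) of the same list averaged under 1 FPKM. The summed endothelial level was 50.6 to 56.4 FPKM in room air, 49.5 to 56.0 in HO and 40.7 to 50.6 in HO-rWNT5A, and the summed smooth muscle and pericyte level was 2952 to 3307, 2419 to 3313 and 2711 to 3119. Flt1 made up most of the endothelial sum, with 41.7 ± 2.14 FPKM in room air, 38.4 ± 4.23 in HO and 33.9 ± 4.06 in HO-rWNT5A. The part of cell makeup in the results was not tested, and in bulk RNA fewer cells of a type cannot be told apart from less RNA per cell. HO replicate 3 stood apart within its group, where small structural RNA took 20.06% of the FPKM total (27.36% and 26.51% in the other HO libraries) and retained-intron transcripts 7.09% (5.49% and 5.26%). Structural RNA took 21.38%, 24.98% and 24.22% in RA replicates 1 to 3 and 28.06%, 26.06% and 23.44% in the HO-rWNT5A libraries. Retained-intron transcripts took 6.33% to 6.58% in RA and 5.96% to 6.58% in HO-rWNT5A. The part of these library differences in the comparisons was not tested. On the log2 scale a typical gene had an SD between libraries of 0.0738 in room air, 0.123 in HO and 0.083 in HO-rWNT5A (medians).

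Sequence just before the transcription starts was taken from RefSeq (GRCm38.p6, which has the coordinates of mm10) for 9 of the 10 genes, in 11 entries of 250 bases. Zmat3 had no entry. Entries are shown for both starts of Cdkn1a, because its transcripts from these starts had different values, Btg2 and Ddit4l, because they rose in both comparisons with room air, and Plk2, because it holds the same 8-letter motif as Btg2. Capitals mark p53 half-sites, the double p53 site and TGACGTCA, the binding motif of the CREB and ATF factors. The Cdkn1a upstream start is chr17:29090729-29090978 and its downstream start chr17:29093519-29093768, both on the plus strand. Btg2 is chr1:134079156-134079405 on the minus strand, Ddit4l chr3:137623422-137623671 and Plk2 chr13:110394794-110395043, both on the plus strand.
Cdkn1a upstream: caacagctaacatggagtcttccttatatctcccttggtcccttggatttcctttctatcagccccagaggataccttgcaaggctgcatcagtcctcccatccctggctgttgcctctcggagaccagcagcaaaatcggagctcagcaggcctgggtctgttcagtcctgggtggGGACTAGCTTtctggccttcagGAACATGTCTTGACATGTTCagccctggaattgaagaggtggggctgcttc
Cdkn1a downstream: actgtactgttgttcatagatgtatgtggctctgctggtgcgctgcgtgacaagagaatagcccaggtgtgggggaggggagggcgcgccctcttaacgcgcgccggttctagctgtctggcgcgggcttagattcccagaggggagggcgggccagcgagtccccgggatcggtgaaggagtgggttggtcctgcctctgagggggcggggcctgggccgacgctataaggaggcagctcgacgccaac
Btg2: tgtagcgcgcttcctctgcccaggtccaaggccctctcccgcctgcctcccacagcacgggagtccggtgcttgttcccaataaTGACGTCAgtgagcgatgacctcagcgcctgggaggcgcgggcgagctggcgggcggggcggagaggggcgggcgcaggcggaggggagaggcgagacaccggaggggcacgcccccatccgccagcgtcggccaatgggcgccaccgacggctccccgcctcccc
Ddit4l: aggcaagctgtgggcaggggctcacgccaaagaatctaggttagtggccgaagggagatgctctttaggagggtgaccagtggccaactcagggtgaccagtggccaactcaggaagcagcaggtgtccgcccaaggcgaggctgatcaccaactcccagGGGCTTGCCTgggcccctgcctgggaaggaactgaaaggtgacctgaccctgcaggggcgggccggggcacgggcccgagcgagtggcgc
Plk2: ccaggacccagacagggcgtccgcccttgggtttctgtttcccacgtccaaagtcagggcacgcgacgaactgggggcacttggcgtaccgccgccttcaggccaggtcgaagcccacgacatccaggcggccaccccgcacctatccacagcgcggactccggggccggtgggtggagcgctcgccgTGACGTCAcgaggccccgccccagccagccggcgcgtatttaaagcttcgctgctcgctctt

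The upstream Cdkn1a entry held a double p53 site, and 31 bases lay between this site and the start. A double site is here a pair of half-sites end to end with at most 1 of its 20 letters off. The C and G in the core of each half-site had to match. Such a site was found in 19 of 32851 mouse promoters of the same length (0.0578%), on either strand. The double site contains a half-site match, and a further half-site lay 63 bases before the same start. A p53 half-site was in 4 of the 11 entries, 1 each of Cdkn1a, Gadd45a, Sesn1 and Ddit4l, and in 7.13% of all promoters. TGACGTCA was in 2 of the 11, Btg2 and Plk2, and in 1.55% of all promoters. Among other motifs searched on both strands, TATAAA was in 0 of the 11 entries and 12.4% of all promoters, GGGCGG in 10 and 32.7%, and CCAAT in 5 and 33.8%. A match is a description of these letters and says nothing about binding in these cells.

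The comparison of HO with RA asks what 48 h of high oxygen changed. Cdkn1a, Btg2 and Ddit4l rose in HO, by 1.31-fold to 1.41-fold. Another 5 genes, Plk2, Plk3, Sesn2, Phlda3 and Zmat3, had 1.15-fold to 1.28-fold higher means in HO and did not pass the test. Gadd45a and Sesn1 had lower means in HO, at 0.96 and 0.84 of the RA mean, and did not pass either. The test was limma on log2(scaled FPKM + 1), a scale that understates the change of low genes, with p-values adjusted by the Benjamini-Hochberg method over all 13832 genes and a threshold of 0.05.

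Of the 10 genes, 3 passed the test upward and 0 downward, where 1.97% of all tested genes passed, 1.21% upward and 0.759% downward. In 8 of the 10 every HO library lay above every RA library, against 11.3% of all tested genes, and in 0 every HO library lay below, against 10.1%. Since the 10 genes were chosen with earlier results of these data known, these shares only describe them. The median log2 fold change of the 10 was 0.28, beside -0.004 over all tested genes, of which the central 80% lay between -0.21 and 0.20. The number of genes passing rested on the room air libraries: 0 of the 10 passed without RA replicate 2, 0 without RA replicate 3 and 1 (Btg2) without RA replicate 1, while the log2 fold changes of Cdkn1a, Btg2 and Ddit4l under those settings stayed between 0.35 and 0.50. In a fit to the HO and RA libraries alone 1 gene (Btg2) passed. Without HO replicates 2 and 3 together HO had only 1 library, so only the size is given for that fit. The median log2 fold change of the 10 was then 0.152. Without HO replicate 3 the number was 4, with Phlda3 added, and without HO replicate 1 it was 4, with Plk3 added. The whole-table count went from 272 to 24, 2 and 3 genes without RA replicates 1, 2 and 3, to 225, 103 and 707 without HO replicates 1, 2 and 3, and to 173, 117 and 167 without HO-rWNT5A replicates 1, 2 and 3, which enter the shared spread. Of the 10 genes 3 passed without HO replicate 2 and without each of the HO-rWNT5A libraries. Left unscaled, the deposited FPKM gave 103 genes higher and 179 lower in place of 167 and 105, and scaling to equal totals gave 26 and 29. Cdkn1a and Btg2 passed under both scalings, and Ddit4l passed on the unscaled FPKM but not on equal totals (adjusted p = 0.0952, limma).

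**Figure D1:**
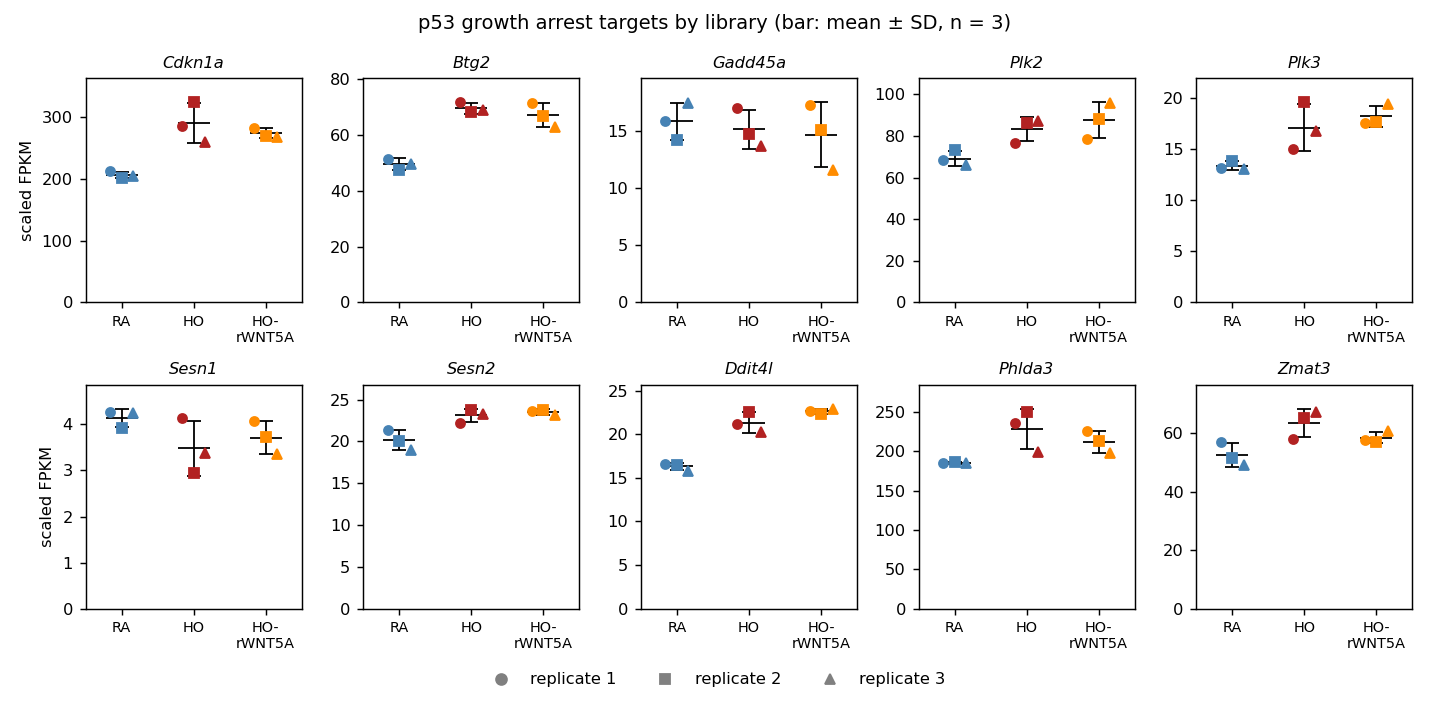
Scaled FPKM of each of the 10 genes in each library, with 1 panel per gene, a linear axis from 0, points for the 3 libraries of a group and a bar for the mean ± SD. The RA points of Cdkn1a (201 to 212), Btg2 and Ddit4l lie below all points of both hyperoxia groups, while the groups of Gadd45a and Sesn1 overlap.

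Cdkn1a (ENSMUSG00000023067.14, chromosome 17, 29090976 to 29100727, plus strand) encodes p21 and was the most abundant of the 10. Its scaled FPKM was 212, 201 and 205 in RA replicates 1 to 3, 286, 324 and 260 in HO, and 283, 270 and 268 in the HO-rWNT5A libraries. The lowest hyperoxia library was well above the highest room air library, and HO replicate 2 was the highest of all. The means were 206 ± 5.47 in room air, 290 ± 32.2 in HO and 273 ± 8.1 in HO-rWNT5A (SD, n = 3). Its log2 fold change in HO was 0.48 ± 0.081 (SE), or 1.41-fold by the means (adjusted p = 0.021, limma).

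Btg2 (ENSMUSG00000020423.6, chromosome 1, 134075170 to 134079120, minus strand) encodes an antiproliferative protein that binds the CCR4-NOT deadenylase and slows entry into S phase. It had 51.6, 47.5 and 49.8 FPKM in RA, 71.7, 68.1 and 69.0 in HO, and 71.6, 67.0 and 63.0 in the HO-rWNT5A libraries. The room air libraries lay below all 6 others, and the HO libraries were close together, with an SD of 0.0384 on the log2 scale. Btg2 had the smallest adjusted p of the 10 in this comparison, with a log2 fold change of 0.48 ± 0.061 (adjusted p = 0.0119, limma).

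Gadd45a, Plk2 and Plk3 act in checkpoints. Gadd45a (ENSMUSG00000036390.8, chromosome 6, 67035096 to 67037457, minus strand) encodes a stress sensor that can inhibit the CDK1 and cyclin B kinase. It had 15.8, 14.2 and 17.4 FPKM in RA, 17.0, 14.7 and 13.7 in HO, and 17.2, 15.1 and 11.6 in the HO-rWNT5A libraries. All 3 groups overlapped, and HO-rWNT5A replicate 3 was the lowest. The log2 fold change in HO was -0.06 with a 95% interval of -0.35 to 0.23 (adjusted p = 0.852, limma), so a rise of the size seen for Cdkn1a lies outside the interval.

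Plk2 (ENSMUSG00000021701.8, chromosome 13, 110395046 to 110400844, plus strand) encodes a polo-like kinase of centriole duplication and of stress checkpoints. It had 68.3, 73.1 and 65.9 FPKM in RA, 76.8, 86.2 and 87.1 in HO, and 78.7, 88.2 and 95.8 in the HO-rWNT5A libraries. The room air libraries were below all others, with a gap of a few FPKM. Its log2 fold change of 0.27 ± 0.081 in HO did not pass (adjusted p = 0.127, limma). Plk3 (ENSMUSG00000028680.14, chromosome 4, 117128655 to 117133963, minus strand), another stress-responsive polo-like kinase, had 13.2, 13.9 and 13.1 FPKM in RA, 15.0, 19.6 and 16.8 in HO, and 17.6, 17.7 and 19.4 in the HO-rWNT5A libraries. Again no hyperoxia library reached down to the room air range. The log2 fold change in HO was 0.33 ± 0.086 (adjusted p = 0.0886, limma).

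Sesn1, Sesn2, Ddit4l and Phlda3 restrain growth signals. Sesn1 (ENSMUSG00000038332.13, chromosome 10, 41809935 to 41908424, plus strand) and Sesn2 (ENSMUSG00000028893.8, chromosome 4, 132492032 to 132510501, minus strand) encode sestrins, which inhibit mTORC1 through the GATOR complexes. Sesn1 was the least abundant of the 10, with 4.28, 3.92 and 4.24 FPKM in RA, 4.13, 2.94 and 3.37 in HO, and 4.07, 3.72 and 3.35 in the HO-rWNT5A libraries. Its lowest libraries were HO replicates 2 and 3 and HO-rWNT5A replicate 3, and HO replicate 1 lay inside the room air range. The log2 fold change in HO was -0.21 with a 95% interval of -0.44 to 0.02 (adjusted p = 0.313, limma). Sesn2 had 21.4, 20.0 and 19.0 FPKM in RA, 22.2, 23.8 and 23.3 in HO, and 23.6, 23.8 and 23.1 in the HO-rWNT5A libraries. The groups in high oxygen did not overlap the room air group, and the log2 fold change in HO was 0.19 ± 0.057 (adjusted p = 0.116, limma).

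Ddit4l (ENSMUSG00000046818.7, chromosome 3, 137621612 to 137628333, plus strand), also called Redd2, encodes an mTORC1 inhibitor related to Ddit4. It had 16.6, 16.5 and 15.8 FPKM in RA, 21.2, 22.6 and 20.2 in HO, and 22.7, 22.3 and 22.9 in the HO-rWNT5A libraries. The room air libraries lay below all 6 others, and the HO-rWNT5A libraries were within 1 FPKM of each other. The log2 fold change in HO was 0.37 ± 0.055, or 1.31-fold by the means (adjusted p = 0.0156, limma). Phlda3 (ENSMUSG00000041801.5, chromosome 1, 135766119 to 135769136, plus strand), whose pleckstrin homology domain competes with AKT for membrane lipids, had 185, 186 and 185 FPKM in RA, 236, 249 and 199 in HO, and 226, 212 and 197 in the HO-rWNT5A libraries. Its room air libraries were nearly equal, and replicate 3 was the lowest library of both hyperoxia groups. The log2 fold change in HO was 0.29 ± 0.087 (adjusted p = 0.115, limma), and without HO replicate 3 it was 0.39 (adjusted p = 0.0192, limma).

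Zmat3 (ENSMUSG00000027663.12, chromosome 3, 32334792 to 32366014, minus strand) encodes an RNA-binding zinc finger protein that acts in p53-dependent growth suppression. It had 57.2, 51.7 and 49.1 FPKM in RA, 58.1, 65.3 and 67.4 in HO, and 57.8, 57.0 and 60.7 in the HO-rWNT5A libraries. HO replicate 1 was less than 1 FPKM above RA replicate 1, and HO replicate 3 was the highest. The log2 fold change in HO was 0.27 ± 0.073 (adjusted p = 0.0951, limma). In HO replicate 3, the library with less structural RNA and more retained introns, Cdkn1a, Ddit4l, Gadd45a and Phlda3 were at their lowest in HO while Plk2 and Zmat3 were at their highest. The part of that library difference in these values was not tested.

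**Figure D2:**
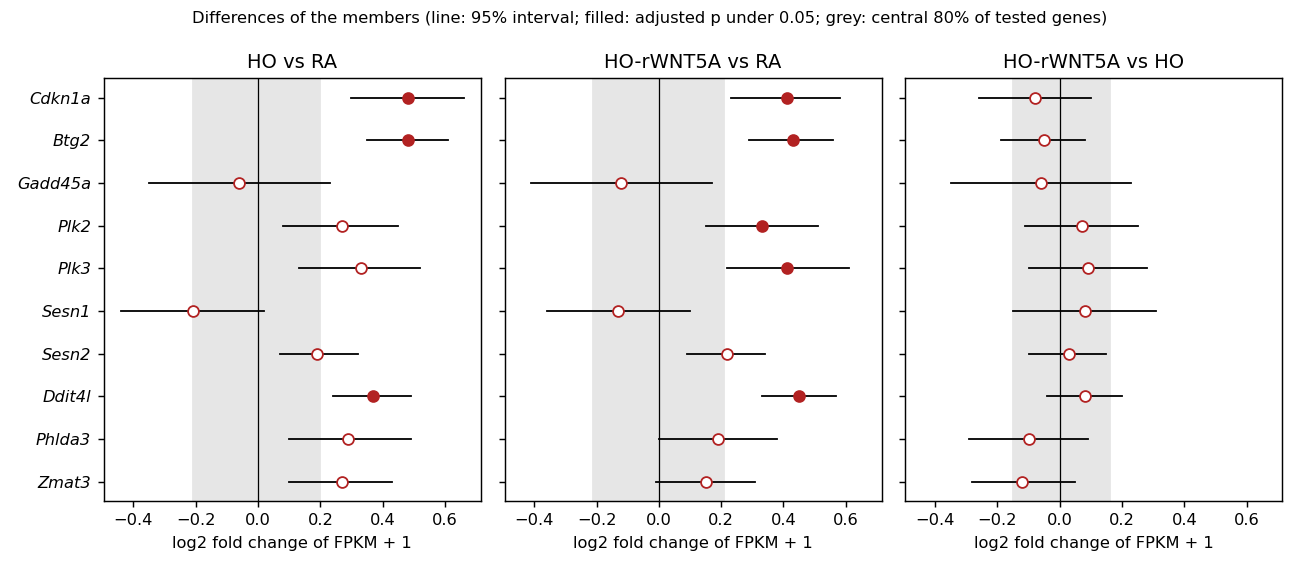
Log2 fold change of FPKM + 1 for each of the 10 genes in the 3 comparisons, with a line for the 95% interval, a filled point where the adjusted p was under 0.05 and a grey band for the central 80% of tested genes. Btg2, Cdkn1a and Ddit4l are filled in both comparisons with RA, Plk2 and Plk3 only in HO-rWNT5A against RA, and no point is filled in HO-rWNT5A against HO.

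The comparison of HO-rWNT5A with HO asks what WNT5A added to high oxygen. None of the 10 genes passed, and in 0 of the 10 did the groups separate. Over all tested genes 1 passed (0.00723%), 0 upward (0%) and 1 downward (0.00723%), while 1272 had an unadjusted p under 0.05, which 0 of the 10 genes had. The groups did not overlap in 6.26% of tested genes upward and 6.69% downward. The log2 differences of the 10 genes ranged from -0.12 for Zmat3 to 0.09 for Plk3, with a median of -0.01. Cdkn1a differed by -0.08 with a 95% interval of -0.26 to 0.10 (adjusted p = 0.8, limma). Btg2 differed by -0.05 (-0.19 to 0.08) and Ddit4l by 0.08 (-0.04 to 0.20), so for these 3 genes a further change as large as that between HO and RA lies outside the interval. The interval was widest for Gadd45a, from -0.35 to 0.23. These p-values do not show that the genes were equal in the pair of hyperoxia groups.

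The comparison of HO-rWNT5A with RA uses the same RA libraries as the comparison of HO with RA, so the results are set side by side and not counted as independent. Of the 10 genes, 5 passed upward and 0 downward, where 4.25% of all tested genes passed, 2.39% upward and 1.86% downward. Every HO-rWNT5A library lay above every RA library in 7 of the 10, against 16.3% of all tested genes, and below in 0, against 16.5%. The genes that passed were Ddit4l (log2 fold change 0.45, adjusted p = 0.00473), Btg2 (0.43, adjusted p = 0.00593), Cdkn1a (0.41, adjusted p = 0.0251), Plk3 (0.41, adjusted p = 0.0298) and Plk2 (0.33, adjusted p = 0.0489), all by limma. In HO the same genes had 0.37, 0.48, 0.48, 0.33 and 0.27. Sesn2 had 0.22 (adjusted p = 0.06, limma), Phlda3 0.19 and Zmat3 0.15, against 0.19, 0.29 and 0.27 in HO. That Plk2 and Plk3 passed with WNT5A and not without does not show a difference between the hyperoxia groups. Between those groups Plk2 and Plk3 differed by 0.07 (-0.11 to 0.25) and 0.09 (-0.10 to 0.28), and neither passed.

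Ddit4l and Btg2 passed in HO-rWNT5A against RA under all 21 alternative settings. The other 3 genes lost the call in part of them: 2 of the 10 genes (Btg2 and Ddit4l) passed without RA replicate 1, 2 or 3 and without HO-rWNT5A replicate 2 or 3, and 3 (with Plk2) passed without HO-rWNT5A replicate 1. Plk3 had a log2 fold change of 0.14 when protein-coding transcripts alone were summed (adjusted p = 0.697, limma). The whole-table count of 588 was 123, 166 and 189 without RA replicates 1, 2 and 3, 201, 144 and 179 without HO-rWNT5A replicates 1, 2 and 3, and 1011 without HO replicate 3. Left unscaled, the FPKM gave 209 genes higher and 615 lower in place of 331 and 257, and equal totals gave 93 and 163, with Btg2, Cdkn1a and Ddit4l higher under both.

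The levels of the 10 genes spanned a wide range, and FPKM allows them to be compared per length. In RA the order of the mean levels was Cdkn1a (206 FPKM), Phlda3 (185), Plk2 (69.1), Zmat3 (52.7), Btg2 (49.7), Sesn2 (20.1), Ddit4l (16.3), Gadd45a (15.8), Plk3 (13.4) and Sesn1 (4.15). Neighbours overlapped for Zmat3 with Btg2 and for Ddit4l with Gadd45a, and the other neighbours in the order did not overlap. Cdkn1a was above 98.8% of tested genes in RA and Phlda3 above 98.6%, while Sesn1 was above 34.4%. In HO and in HO-rWNT5A Btg2 stood above Zmat3 and Plk3 above Gadd45a, with Btg2 and Zmat3 apart in both groups. Plk3 and Gadd45a overlapped in HO and were apart in HO-rWNT5A.

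The table lists 34 transcripts for the 10 genes, and Btg2 and Sesn2 have 1 each. Of the 25 transcripts with a mean of at least 1 FPKM, 0 passed in any comparison when 25540 transcripts were tested, where 0.00783% of transcripts passed in HO against RA, 0.0117% in HO-rWNT5A against HO and 0.0352% in HO-rWNT5A against RA. In HO against RA, 8 of the 25 had an unadjusted p under 0.05, as did 2878 of the 25540. This transcript test was added after the data had been seen.

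Most Cdkn1a RNA was assigned to Cdkn1a-201, which begins at the downstream start and made up 90.0% to 92.7% of the gene in every library. It had 189 ± 7.14 FPKM in room air, 263 ± 29.1 in HO and 249 ± 6.6 in HO-rWNT5A. Cdkn1a-202, a coding transcript that begins at the upstream start, the one beside the double p53 site printed above, had 6.41, 7.42 and 6.94 FPKM in RA, 6.86, 9.08 and 5.74 in HO, and 7.61, 6.54 and 5.64 in the HO-rWNT5A libraries. Its groups overlapped, and its log2 difference in HO was 0.04 ± 0.16 (SE). Cdkn1a-204, a processed transcript not annotated as coding, begins within a few bases of the same upstream start. It had 1.62 ± 0.471 FPKM in room air, 2.20 ± 0.205 in HO and 2.28 ± 0.271 in HO-rWNT5A. Its log2 difference was 0.30 in HO (adjusted p = 0.48, limma) and 0.33 in HO-rWNT5A against RA (adjusted p = 0.446, limma). Which start the double site acts on was not tested. Cdkn1a-203, whose annotated start at 29097900 is inside the gene, had 7.51, 8.47 and 8.62 FPKM in RA, 14.2, 19.4 and 16.5 in HO, and 15.4, 13.9 and 14.1 in the HO-rWNT5A libraries. All hyperoxia libraries were well above the room air libraries, with a log2 fold change in HO of 0.94 ± 0.11 that did not pass over all transcripts (adjusted p = 0.137, limma). The split of reads between overlapping transcripts is an estimate of the authors' software.

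Gadd45a and Plk3 had large shares of transcripts that are not annotated as coding. Retained-intron transcripts made up 46.6% to 71.6% of Gadd45a in the 9 libraries. Its coding transcript Gadd45a-201 had 7.43 ± 0.145 FPKM in room air, 6.28 ± 1.53 in HO and 5.69 ± 0.969 in HO-rWNT5A, with HO replicate 2 above the room air range at 7.85. The processed transcript Plk3-202 made up 32.6% to 62.6% of Plk3 and had 5.36 ± 1.1 FPKM in room air, 7.32 ± 0.46 in HO and 9.06 ± 2.27 in HO-rWNT5A, while the coding Plk3-201 had 7.98 ± 0.754, 9.82 ± 1.88 and 9.13 ± 2.33.

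Sesn1 was split between 2 coding transcripts with different starts. Sesn1-201 had 2.51, 1.56 and 2.30 FPKM in RA, 2.44, 0.116 and 0.809 in HO, and 1.93, 1.72 and 0.857 in the HO-rWNT5A libraries. HO replicate 2 was close to 0, HO replicate 3 was also below the room air range, and HO replicate 1 lay inside it. Sesn1-202 had 1.77, 2.34 and 1.91 FPKM in RA, 1.64, 2.79 and 2.50 in HO, and 2.06, 1.96 and 2.49 in the HO-rWNT5A libraries, with all groups overlapping. The remaining genes had 1 dominant coding transcript: Phlda3-201 held 98.9% to 99.4% of Phlda3, Zmat3-201 92.2% to 94.5% of Zmat3, Plk2-201 87.8% to 92.2% of Plk2 and Ddit4l-201 82.3% to 89.0% of Ddit4l.

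**Figure D3:**
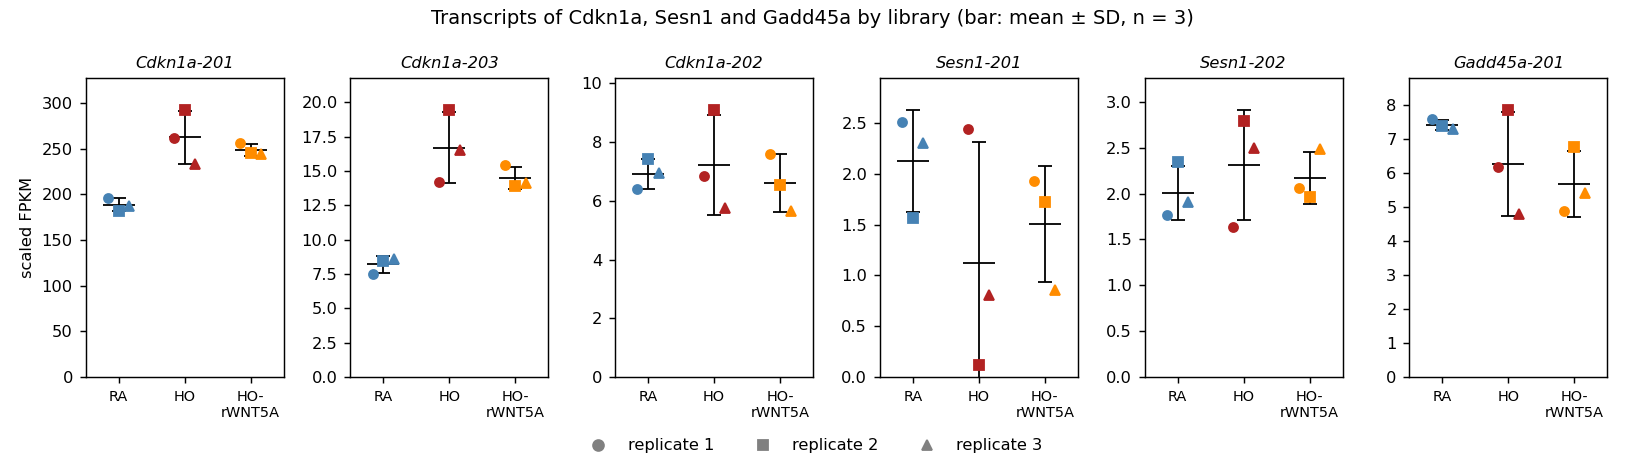
Scaled FPKM of 6 transcripts of Cdkn1a, Sesn1 and Gadd45a in each library, with a linear axis from 0 in each panel, points for libraries and a bar for the mean ± SD. Cdkn1a-201 and Cdkn1a-203 are higher in every hyperoxia library than in room air, Cdkn1a-202 is not, and Sesn1-201 is at 0.116 in HO replicate 2, where the SD bar runs past the lower end of the axis.

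Across the 9 libraries the genes differed in how closely they followed the average pattern of the 10, which is a description of libraries that share their groups. The correlation r of a gene with the mean standardised level of the 10 was 0.972 for Cdkn1a, 0.972 for Btg2, 0.956 for Ddit4l and 0.931 for Sesn2, each of which is part of that mean. It was 0.861 for Phlda3, 0.832 for Plk3, 0.738 for Zmat3 and 0.721 for Plk2, and it was -0.082 for Gadd45a and -0.524 for Sesn1. The 5 other protein-coding genes with the most similar pattern over the 9 libraries were Ier5l (r = 0.979), Car5b (0.978), Gprc5b (0.977), Zbtb7b (0.974) and Dyrk3 (0.973). Ier5l had 14.2 ± 0.5 FPKM in room air, 24.3 ± 3.09 in HO and 22.0 ± 1.13 in HO-rWNT5A.

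Relatives of the 10 genes in the same families moved in part. Of 14 relatives 13 were tested, and 2 rose and 1 fell in HO, with a median log2 fold change of 0.05. Over all tested genes 1.21% rose and 0.759% fell in HO. Ddit4, the stress-induced mTORC1 inhibitor also called Redd1, had 20.4 ± 0.891 FPKM in room air, 29.9 ± 3.5 in HO and 30.4 ± 1.4 in HO-rWNT5A and rose in HO by 0.53 on the log2 scale (adjusted p = 0.0156, limma). Phlda1 had 64.6 ± 3.43, 85.0 ± 4.02 and 83.4 ± 4.42 FPKM and rose by 0.39 (adjusted p = 0.0199, limma). Plk1, the mitotic polo-like kinase, had 3.93 ± 0.284, 1.89 ± 0.0906 and 1.84 ± 0.349 FPKM, and its log2 fold change was -0.77 (adjusted p = 0.0119, limma). Without RA replicate 1, 2 or 3, 0 relatives passed in HO.

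Against RA, 6 relatives rose and 1 fell in HO-rWNT5A, where 2.39% of all tested genes rose and 1.86% fell. From 2 to 4 relatives passed when any 1 library of those groups was left out. Beyond Ddit4, Phlda1 and Plk1, the relatives that passed with all libraries were Tob1 (0.39), Btg1 (0.28) and Tob2 (0.31), antiproliferative proteins of the Btg2 family, and Gadd45b (0.60, from 6.51 ± 0.827 FPKM in RA to 10.3 ± 0.597). In HO the log2 differences of Tob1, Btg1, Tob2 and Gadd45b were 0.27, 0.21, 0.19 and 0.34 and did not pass. The other CDK inhibitors of the p21 family, Cdkn1b with 3.98 FPKM and Cdkn1c with 8.88 FPKM in RA, were far below Cdkn1a and had log2 differences in HO of -0.07 and 0.00. Gadd45g (55.1 FPKM in RA), Btg3 (21.3), Sesn3 (11.8) and Plk4 (3.23) passed in neither comparison with RA, and Phlda2 was at 0.251 FPKM and untested. Between the hyperoxia groups 0 relatives passed, by limma, and 0 had an unadjusted p under 0.05, beside 1272 of the 13832 tested genes.

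Other p53 targets and regulators, a list drawn up with earlier results of these data known and so not independent evidence, included many that rose. Of 28 genes 27 were tested, and 14 rose and 0 fell in HO, with a median log2 fold change of 0.35. Over all tested genes 1.21% rose and 0.759% fell in HO. Trp53inp1, a p53-induced regulator of autophagy and cell death, had 45.3 ± 2.25 FPKM in room air and 67.6 ± 5.77 in HO (log2 0.56, adjusted p = 0.0119, limma). Mdm2, the ubiquitin ligase that degrades p53, had 154 ± 6.49 and 229 ± 26.7 (log2 0.57, adjusted p = 0.0199, limma). Eda2r (log2 0.44), the phosphatase gene Ppm1d (0.40) and Pidd1 (0.46), which acts in DNA damage signalling, also rose. The mRNA of p53 itself, Trp53, named after its values were seen, had 34.8 ± 2.64 FPKM in room air, 42.4 ± 2.92 in HO and 41.6 ± 2.73 in HO-rWNT5A (log2 0.28 in HO, adjusted p = 0.0925, limma). Against RA, 16 rose and 0 fell in HO-rWNT5A, where 2.39% of all tested genes rose and 1.86% fell. Against HO 0 passed by limma, and 3 of the 27 had an unadjusted p under 0.05, as did 1272 of the 13832 tested genes. The HO count rested on the room air libraries as well: 2, 0 and 0 passed without RA replicates 1, 2 and 3, 8 without HO replicate 2, 16 without HO replicate 3 (15 higher and 1 lower), 7 without HO-rWNT5A replicate 2, 5 with the replicate block and 1 with libraries scaled to equal totals, while the median log2 fold change under equal totals was 0.314. The 16 of HO-rWNT5A became 7, 9 and 8 without RA replicates 1, 2 and 3 and 10, 6 and 8 without HO-rWNT5A replicates 1, 2 and 3.

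**Figure D4:**
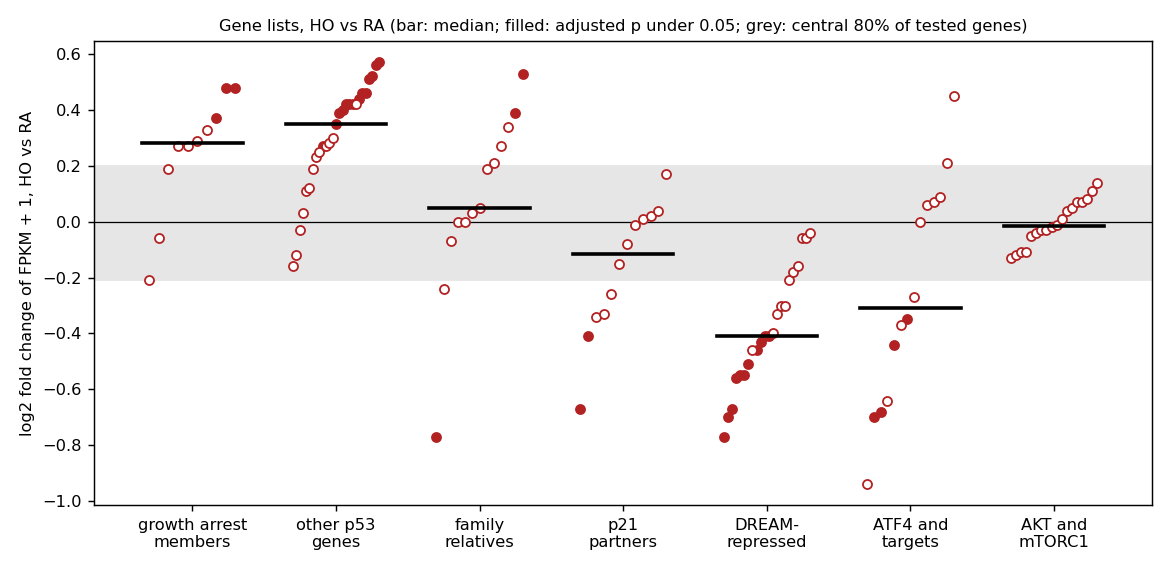
Log2 fold change of FPKM + 1 in HO against RA for the growth arrest genes and 6 related lists, with 1 point per gene, filled where the adjusted p was under 0.05, a bar for the median of each list and a grey band for the central 80% of tested genes. The medians are 0.28 for the growth arrest genes, 0.35 for the other p53 genes, -0.41 for the DREAM-repressed genes and -0.01 for AKT and mTORC1 genes.

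In HO 0.759% of all tested genes fell and 1.21% rose. Among the cyclins, kinases and PCNA that p21 binds, 2 of 12 fell and 0 rose in HO. They were Ccna2, cyclin A, from 7.03 ± 0.533 to 5.04 ± 0.139 FPKM (log2 -0.41, adjusted p = 0.0247, limma), and Ccnb1, cyclin B, from 8.61 ± 0.459 to 5.07 ± 0.457 (log2 -0.67, adjusted p = 0.0138, limma). In HO-rWNT5A 5 fell against RA, with Ccne2, Cdk1 and Pcna added, where 1.86% of all tested genes fell. Of the 12, 2 or 3 fell when any 1 library of those groups was left out. In HO 0 passed without RA replicate 1, 2 or 3, and 1 without HO replicate 1 or 2. Of 24 cell cycle genes repressed through the DREAM complex 22 were tested, and 11 fell and 0 rose in HO, with a median of -0.41 and all 22 differences below 0. The smallest p-values were those of Plk1 and of Prc1, a protein of the central spindle, which went from 9.14 ± 0.175 to 5.24 ± 0.246 FPKM (log2 -0.70, adjusted p = 0.0119, limma), followed by Ccnb2 (-0.56), Ccnb1 and Top2a (-0.55). In HO-rWNT5A 13 fell against RA, and 8 without RA replicate 1 or 2 or HO-rWNT5A replicate 2. The lists share Ccna2, Ccnb1 and Cdk1, and Plk1 is also among the relatives. Of the DREAM list 1, 0 and 0 passed in HO without RA replicates 1, 2 and 3, 6 without HO replicate 1, 7 without HO-rWNT5A replicate 2 and 3 with equal totals.

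Sesn2 and Ddit4 are also known targets of ATF4, the transcription factor of the integrated stress response. Of 15 further genes, Atf4 itself and 14 of its targets, 14 were tested, and 4 fell and 0 rose in HO: Mthfd2 (log2 -0.68), Aldh18a1 (-0.44), Trib3 (-0.70) and Psat1 (-0.35), genes of one-carbon, proline and serine metabolism and a stress pseudokinase. Mthfd2 went from 19.9 ± 1.4 to 12.0 ± 1.25 FPKM (adjusted p = 0.0119, limma). Over all tested genes 0.759% fell and 1.21% rose in HO. The list was mixed, with 6 of the 14 differences above 0, against 48.9% of all tested genes. Every HO library lay above every RA library in 2 genes and below in 8, against 11.3% and 10.1% of all tested genes. Atf4 itself had 83.9 ± 4.24 FPKM in RA and 97.5 ± 7.94 in HO, and Cebpb 41.4 ± 4.09 and 57.5 ± 11.7, and neither passed. In HO-rWNT5A 5 fell against RA, with Asns, asparagine synthetase, added (log2 -0.52), where 1.86% of all tested genes fell. Of the list 3 fell without HO-rWNT5A replicate 2. In HO 1, 0 and 0 passed without RA replicates 1, 2 and 3, and without HO replicate 3 the calls were 4 lower and 2 higher in HO and 7 lower and 1 higher in HO-rWNT5A. Of 18 genes of AKT and mTORC1 signalling, the pathway that the sestrins, Ddit4l and Phlda3 restrain, 0 passed in any of the 3 comparisons, by limma. In HO against RA, HO-rWNT5A against HO and HO-rWNT5A against RA, their medians were -0.01, 0.02 and 0.02. In the same order 1, 1 and 2 of the 18 had an unadjusted p under 0.05, beside 2511, 1272 and 2890 of the 13832 tested genes. These are mRNA levels, and the activity of the kinases was not measured. Between the hyperoxia groups 0 of the p21 partners, DREAM genes and ATF4 list passed by limma. An unadjusted p under 0.05 was found for 3 of 12, 2 of 22 and 0 of 14, beside 1272 of the 13832 tested genes.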

How the data were processed

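Per the labels' protocols, the authors made total RNA libraries, read them as 150-base pairs, trimmed them with Skewer 0.2.2, aligned them with STAR 2.5.3a to an Ensembl reference and assembled transcripts with StringTie 1.3.1 and gffcompare 0.9.9c. FastQC 0.11.2, DESeq2 and the builds hg38 and mm10 appear, with no role, in the submitters' processing notes; identifiers in the table are mouse ones. The values the authors deposited are FPKM for 143043 transcripts. Of 142351 Ensembl transcripts, 141441 (99.36%) were found in GENCODE M21, which gave names and coordinates. Fragment counts could not be recovered, since 4.1% to 5.7% of values were whole multiples of the most common step within 0.02, so read depth is unknown and no count test was run. Whether reads were assigned by strand is not given in the sources used here.

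FPKM was summed per gene, each library was scaled by its median ratio to the geometric mean, and genes averaging 1 FPKM or more were tested on log2(FPKM + 1), with a pseudocount of 1, by limma 3.58.1 in R 4.3.3 (all 9 libraries in 1 model, variance trend, two-sided, Benjamini-Hochberg adjustment over all genes, threshold 0.05). Exact permutation of 3 against 3 libraries was not used, since its smallest p is 0.1. Python 3.11.15 was used for tables and motif searches with pandas 2.3.3 and numpy 2.4.6, and for plots with matplotlib 3.10.9. The fit was tested on simulated data: for HO against RA it called 75 of 100 genes altered 1.5-fold, 95 of 100 altered 2-fold and 8 unaltered genes among 13832. These changes were added on the log2(FPKM + 1) scale, with an SD per gene pooled over the groups. Changes as small as those of the growth arrest genes that rose or did not pass in HO were not simulated, so how often they are missed is unknown.

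The 10 genes and all lists were chosen with earlier results of these data known. All 10 were to be described whatever their values, with up to 5 genes of each other list by smallest adjusted p among those past the threshold, all relatives, and the 5 genes most alike in pattern. No clear pairing by replicate number was seen. Deviations of same-numbered libraries correlated between -0.117 and 0.279, and those of differently numbered libraries between -0.251 and 0.172. The highest value was that of HO replicate 1 with HO-rWNT5A replicate 1, and a batch shared by equal numbers was not tested. The 21 alternatives changed the pseudocount, the filter, the scaling, the transcripts summed, the variance model, the libraries used or the block.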

Additional observations from a re-analysis of the deposited data

How the results depend on the processing

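Over 21 alternative settings, Btg2, Cdkn1a and Ddit4l kept a higher level in both hyperoxia groups than in RA, and the settings changed how many genes passed the threshold rather than the direction of these 3. In HO against RA the whole-table count of 272 became 69 with no filter on low values, 55 with libraries scaled to equal totals, 58 with only the HO and RA libraries, 23 without HO replicates 2 and 3 together and 2 to 707 when single libraries were left out, and the number of the 10 growth arrest genes became 1 with only those libraries, 1 without HO replicates 2 and 3 together and 0 to 4 when single libraries were left out. In HO-rWNT5A against HO the whole-table count of 1 became 0 with no filter, 0 with protein-coding transcripts only, 3 with only the compared libraries and 1 to 27 when single libraries were left out. In this comparison 0 of the 10 genes passed under any setting with more than 1 library per group. In HO-rWNT5A against RA the whole-table count of 588 became 222 with no filter, 256 with equal totals, 1316 with only the compared libraries, 1339 without HO replicates 2 and 3 together and 123 to 1011 when single libraries were left out, and the number of the 10 genes became 2 with no filter, 3 with equal totals, 3 with protein-coding transcripts only and 2 to 6 when single libraries were left out. Where a group was left with fewer libraries, they were assumed to vary like the other groups. With the replicate number as a block the whole-table counts were 115, 2 and 392 and those of the 10 genes 3, 0 and 4, but the labels give the libraries only a shared number. Every difference of the 10 genes that changed sign was one that had not passed in its own comparison, although Cdkn1a and Plk3, named here for HO-rWNT5A against HO, passed in others. With single libraries left out, the log2 difference of HO-rWNT5A against HO ranged from -0.15 to 0.00 for Cdkn1a (the highest without HO replicate 2), -0.01 to 0.18 for Sesn1 (the lowest without HO replicate 2), -0.00 to 0.05 for Sesn2 (the lowest without HO replicate 1) and -0.18 to 0.09 for Gadd45a (0.02 without HO replicate 1, 0.09 without HO-rWNT5A replicate 3). For Gadd45a it ranged from -0.24 to 0.03 in HO-rWNT5A against RA and from -0.14 to 0.01 in HO against RA, where it was 0.11 without HO replicates 2 and 3 together. Under that last setting, which leaves only 1 HO library, Sesn1 had -0.13 and Zmat3 0.01 in HO-rWNT5A against HO. Plk3 had -0.11 in that comparison with protein-coding transcripts only. The cause of these shifts was not tested. Read depth is unknown, so counting error behind low values such as those of Sesn1 could not be set against these differences.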

Other observations

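The annotated spans of several genes, introns included, overlap those of growth arrest genes, and whether their exons share bases was not checked. Where exons overlap on opposite strands, reads cannot be told apart with certainty without known strand use in the counting. For genes on the same strand, strand use would not separate them. E230016M11Rik, a noncoding gene on the strand opposite Gadd45a, had a mean of 1.47 FPKM in room air, 0.964 in HO and 0.825 in HO-rWNT5A. Gm12981, on the same strand as Sesn2, had 2.1, 2.78 and 2.72 FPKM. AC167363.2, opposite Cdkn1a, had 0.557, 0.714 and 0.939 FPKM, 9930024M15Rik, on the strand of Sesn1, had 0.69, 0.572 and 0.635, and Tctex1d4, opposite Plk3, had 0.0284, 0.0378 and 0.0147. Each of these levels was well below that of the growth arrest gene it overlaps.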
